A study of Mus musculus and Homo sapiens with 18 samples.

Results

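A set of 9 genes that mark cells of the neural lineage was followed through 3 sets of RNA-seq libraries, out of 16178 genes that could be matched by symbol between all 3 count tables. They were taken by symbol: *Nes*, *Gfap*, *Fabp7*, *Dcx*, *Map2*, *Sox9*, *Slc1a3*, *Aqp4* and *Aldh1l1* in the mouse tables, and the same symbols in capitals in the human table. All 9 were present in each table. The study compared cells with and without Qki, an RNA-binding protein of the STAR family encoded by *Qk* in mice and *QKI* in humans, with 3 libraries in each of 6 groups and 18 libraries in all. Whole lenses were dissected from mice between postnatal day 17 and 19 (P17-19) that carried Nestin-CreERT2 together with either QkL/L (Qk-iCKO) or QkL/+ (Ctrl), so the control mice had the Cre transgene and 1 floxed allele as well. Tamoxifen was given to both groups at P7 and P8 to induce the Cre, which acts on the exon 2 of *Qk* and only in cells where the Nestin promoter is active; *Nes*, the gene of that promoter, is one of the 9. NLPCs are lens progenitor-like cells made in culture, and started from neural stem cells of whole brains of Nestin-CreERT2;QkL/L mice at P1. In these cells 100 nM 4-hydroxytamoxifen, given 2 times, induced the deletion (labelled Qk-/-; the others WT), and differentiation ran over 6 days in 100 ng/ml Noggin and then 12 days in bFGF at 100 ng/ml together with BMP4 and BMP7, each at 20 ng/ml. HLE-B3 is a human lens epithelial cell line, used as WT and after *QKI* knockout by CRISPR-Cas9 (QKI KO); whether the knockout line was 1 clone is not given in the sources used here. The labels do not say that the 3 libraries of an NLPC or HLE-B3 group came from separate cultures. The reporting summary of the study states in general that cell line work used independent biological replicates, without naming these libraries, so p-values there measure the spread between these libraries, which may in part be technical.

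Neural stem cells are the dividing precursors of the brain, and they give rise to neurons and to glia. Nestin (*Nes*), an intermediate filament protein, is their classic marker, while a related filament protein, Gfap, marks astrocytes and some stem cells. The glutamate transporter Slc1a3 (also called GLAST), the lipid carrier Fabp7, the transcription factor Sox9, the water channel Aqp4 and the folate enzyme Aldh1l1 are shared, to different degrees, by radial glia and astrocytes. Doublecortin (*Dcx*) binds microtubules in young migrating neurons, and Map2 does so in the dendrites of mature ones.

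The libraries held 10319320 to 16425331 counted reads in the lens, 28154202 to 68243360 in NLPCs and 69190864 to 81384471 in HLE-B3 cells. Lens Qk-iCKO library 1 stood apart from the other 5 of its set, with the lowest share of crystallin reads (56.3%, against 64.7 to 66.9%). NLPC Qk-/- library 2 was the shallowest of its set and correlated least with the other libraries (mean r = 0.892, against 0.948 to 0.957). Values without these libraries are given for some results. *QKI* itself fell in HLE-B3 QKI KO cells from 19223 ± 252 to 7569 ± 187 normalized counts (mean ± SD, n = 3; log2 fold change −1.34 ± 0.05 SE, adjusted p = 1.9e-11 by edgeR's quasi-likelihood test with Benjamini-Hochberg adjustment). In Qk-iCKO lenses *Qk* was at 1257 ± 125 against 1558 ± 73 in Ctrl (−0.31 ± 0.14, adjusted p = 0.20). In the NLPC libraries labelled Qk-/- it was higher, at 183393 ± 14741 against 137744 ± 6254 (0.41 ± 0.09, adjusted p = 0.027). The count covers all exons of *Qk*, those outside the deleted one included, so in the mouse tables it does not check the deletion.

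The first question was how much of a neural profile the control NLPCs had. The starting neural stem cells were not among the libraries, so levels kept from them cannot be told apart from levels gained in culture. Of the 9 genes 7 lay in the top 10% of all genes with a count in WT NLPCs, against 0 of 9 in Ctrl lenses and 2 of 9 in WT HLE-B3 cells. Levels are CPM (read counts relative to library size, scaled within each system by TMM), per kilobase of merged exons, and since each table was normalized on its own, values from different systems stand side by side without a test. The cut for the top 10% was 11.8 CPM per kb in WT NLPCs. *Fabp7* stood highest, at 1017 ± 46 CPM per kb (SD, n = 3), followed by *Gfap* at 330 ± 34 and *Slc1a3* at 212 ± 10. *Nes* (146 ± 7.7) and *Aqp4* (135 ± 6.5) came next and could not be separated, because their libraries overlapped. *Map2* was at 75.1 ± 2.7 and *Sox9* at 49.5 ± 5.1. All other neighbours in this order were apart in every library. Both other genes were below the cut: *Aldh1l1*, at 2.54 ± 0.27 and thus near the 65th percentile, and *Dcx*, at 0.87 ± 0.23 and near the 54th. With the length of the longest transcript in place of merged exons, *Map2* rose to 197 CPM per kb and passed *Nes* (152) and *Aqp4* (166), and again 7 of 9 genes were in the top 10%.

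In Ctrl lenses the highest of the 9 was *Gfap*, at 2.05 ± 0.48 CPM per kb, and the top 10% began at 7.06. *Aqp4* (1.63 ± 0.35), *Map2* (1.12 ± 0.35), *Nes* (0.94 ± 0.18) and *Aldh1l1* (0.89 ± 0.11) followed with overlapping libraries. *Sox9* and *Slc1a3* were at 0.23 ± 0.11 and 0.21 ± 0.21. *Fabp7* and *Dcx* rested on 1 and 8 reads over the 3 Ctrl libraries. Against the reads outside crystallin genes alone, all these lens levels were higher (*Gfap* at 5.38), and again 0 of 9 were in the top 10%. In WT HLE-B3 cells *SOX9* (22.0 ± 0.82) and *NES* (18.1 ± 1.4) were in the top 10%, whereas *SLC1A3* was at 1.12 ± 0.073 (3.47 with the longest transcript) and *MAP2* at 0.10 ± 0.039. No read fell on *FABP7* or *DCX* in any of the 6 HLE-B3 libraries, in which 3 reads would have been 0.0369 to 0.0434 CPM, and *GFAP*, *AQP4* and *ALDH1L1* had 32, 6 and 32 reads over all 6.

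**Figure D1:**
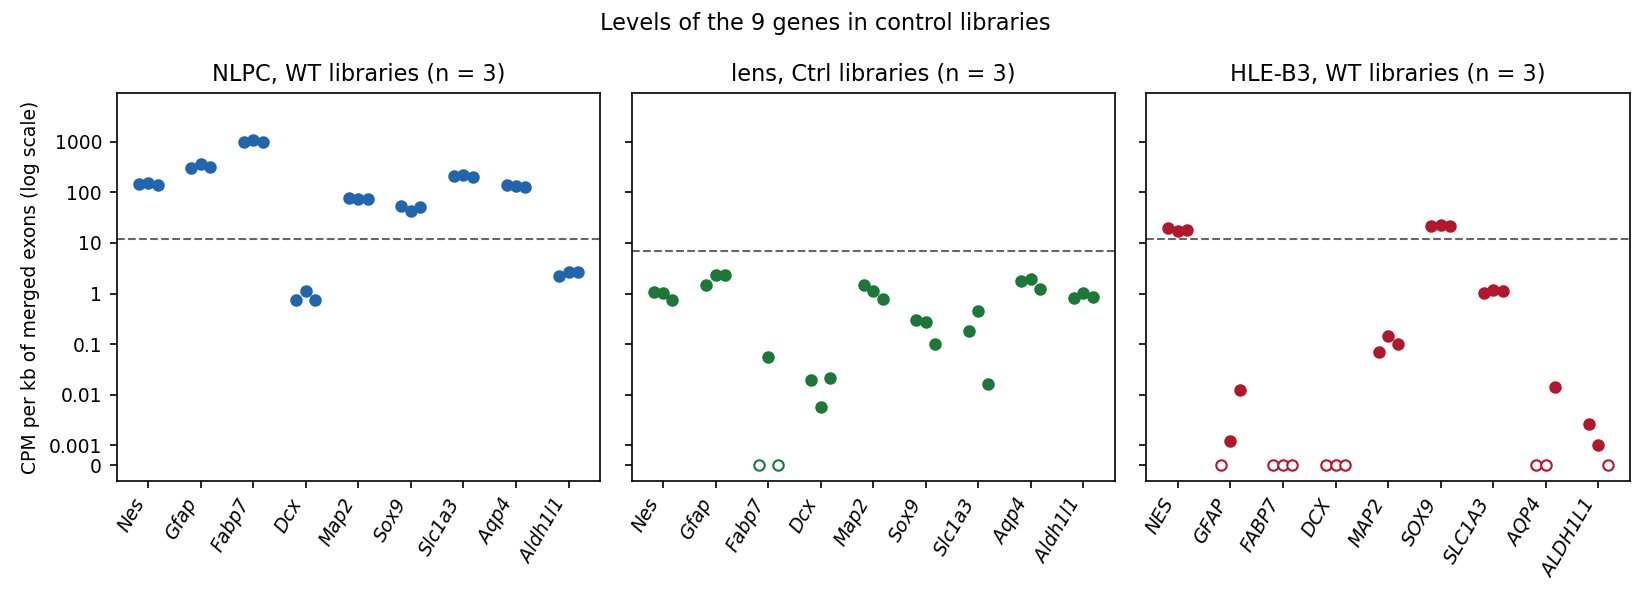
Level of each of the 9 genes in the 3 control libraries of NLPCs, lens and HLE-B3 cells, in CPM per kb of merged exons on a log axis, with 1 point per library (1 to 3 from left to right). The dashed line is the cut for the top 10% of genes with a count, and open points at the bottom are libraries with no read. In WT NLPCs 7 genes lie above the line, in Ctrl lenses none, and in WT HLE-B3 cells *NES* and *SOX9*.

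Lists of marker genes of each cell class, in which the 9 are included, were set beside them. In WT NLPCs 18 of 24 astrocyte and radial glia genes (median 54.8 CPM per kb) and 13 of 20 neural stem and progenitor genes (median 20.4) were in the top 10%, beside 4 of 10 genes of the oligodendrocyte lineage (median 4.89). Of 24 neuron genes 3 were, with a median of 0.55 CPM per kb. The genes with the highest level in these lists, named here after their values were seen, were *Sparcl1* (3831 ± 121), *Fabp7*, *Olig1* (272 ± 30) and *Map2*. Of 15 lens genes only *Cryab*, a small heat shock crystallin that is also made outside the lens, reached the top 10% of WT NLPCs, at 43.8 ± 3.2. The median of the lens list there was 0.044 CPM per kb. Most of this list are crystallins and other products of lens fibres, so its median does not measure a progenitor identity. By protein staining, the paper describes NLPCs as intermediate in Pax6 and high in αB-crystallin, the product of *Cryab*. The lens regulators *Pax6* (7.10 ± 0.24), *Prox1* (5.37 ± 0.68) and *Maf* (4.00 ± 0.66) were counted. *Pax6* does not set lens apart here, since the paper also describes the starting neural stem cells as high in Pax6. The lens fibre gene *Bfsp2* was at 1.00 ± 0.25, with 76 to 142 reads per library. Other defining products of lens fibres were near 0, with 0 to 8 reads per library on *Cryaa* and 0 to 2 on *Mip*. *Foxe3*, a regulator of the lens epithelium, had no read. All crystallin genes together took 0.0062 to 0.0066% of the reads of WT NLPCs, against 64.7 to 65.3% in Ctrl lenses, where 13 of the 15 lens genes were in the top 10%. In WT HLE-B3 cells 1 of the 15 was, *CRYAB*.

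**Figure D2:**
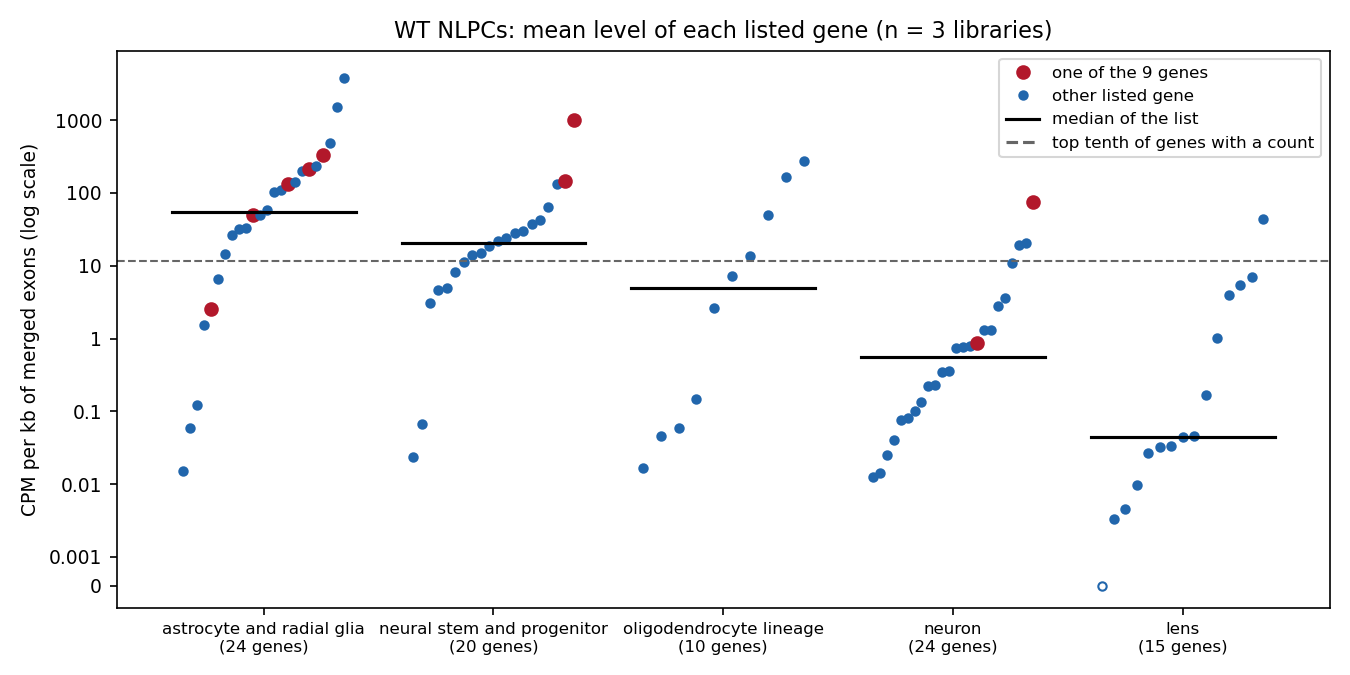
Mean level in the 3 WT NLPC libraries of every gene of 5 lists, in CPM per kb of merged exons on a log axis, ordered within each list. Red points are those of the 9 genes, black bars list medians and the dashed line the cut for the top 10%; the medians run from 54.8 for astrocyte and radial glia genes to 0.044 for lens genes.

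The second question was what changed in NLPCs labelled Qk-/-. Of the 9 genes 5 passed the test: the astrocyte genes *Slc1a3* and *Gfap* fell, and *Aqp4*, *Dcx* and *Map2* rose. The 2 lower and 3 higher genes stand beside 5.96% of the 20371 genes tested that were called lower and 4.74% that were called higher. The median log2 fold change of the 9 was −0.13, with 0.04 over all genes. Together the 9 genes took 0.749 to 0.771% of all reads in WT and 0.608 to 0.669% in Qk-/- libraries. In such bulk samples, fewer cells of a type cannot be told apart from less RNA per cell.

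*Slc1a3* (chr15:8634124-8710764, minus strand, GRCm38) takes up glutamate in radial glia and astrocytes. Its normalized counts were 98419, 102157 and 92797 in WT and 33800, 27199 and 31676 in Qk-/- libraries. The groups were far apart, and *Slc1a3* was 3.17-fold lower (log2 fold change −1.66 ± 0.10 SE, adjusted p = 0.00024). *Gfap* (chr11:102887336-102900912, minus strand), the intermediate filament of astrocytes, had 68178, 83616 and 73434 normalized counts in WT and 32241, 19750 and 34774 in Qk-/-. Every WT library was above every Qk-/- library, of which library 2 was the lowest, and *Gfap* was 2.595-fold lower (−1.38 ± 0.20, adjusted p = 0.0051). Without Qk-/- library 2 the change of *Gfap* was −1.16.

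*Aqp4*, the water channel of astrocyte endfeet, went the other way. Its normalized counts were 47259, 45712 and 42972 in WT and 74443, 76040 and 76394 in Qk-/-, which is 1.67-fold higher (0.74 ± 0.08, adjusted p = 0.0012). Neither group spread by more than a small part of the difference. The remaining glial genes did not pass. *Fabp7*, a fatty acid carrier of radial glia, had 67904, 71957 and 65880 normalized counts in WT and 58241, 58359 and 64839 in Qk-/-; the groups did not overlap, but the change was small (−0.18 ± 0.09, adjusted p = 0.22). *Nes* was at 50390 ± 2682 in WT and 46036 ± 2482 in Qk-/- (−0.13 ± 0.08, adjusted p = 0.37), and *Sox9*, a regulator of gliogenesis, at 11036 ± 1133 and 10459 ± 1774 (−0.08 ± 0.14, adjusted p = 0.76; 0.05 without Qk-/- library 2). *Aldh1l1* was at 618 ± 66 and 521 ± 114 (−0.24 ± 0.19, adjusted p = 0.44). For *Nes*, *Sox9* and *Aldh1l1* the groups overlapped. Of the 9 genes 6 had groups that did not overlap, beside 35.2% of all genes tested.

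Both neuron genes rose. *Dcx* (chrX:143855842-143933311, minus strand) had 500, 771 and 506 normalized counts in WT and 1254, 1209 and 1142 in Qk-/- libraries, and was 2.03-fold higher (1.02 ± 0.18, adjusted p = 0.012). WT library 2 was the highest of its group and still below all 3 Qk-/- libraries. *Map2* (chr1:66175273-66442583, plus strand) had 69450, 65465 and 65136 in WT and 87463, 80731 and 85777 in Qk-/-, a 1.27-fold difference (0.34 ± 0.08, adjusted p = 0.030). The call of *Dcx* was lost without WT library 1 (adjusted p = 0.069), WT library 3 (0.081) or Qk-/- library 1 (0.062). That of *Map2* was lost without any of WT libraries 1, 2 and 3 (0.114, 0.114 and 0.210) or Qk-/- libraries 1 and 3 (0.137 and 0.099), with changes of 0.32 to 0.38 throughout.

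**Figure D3:**
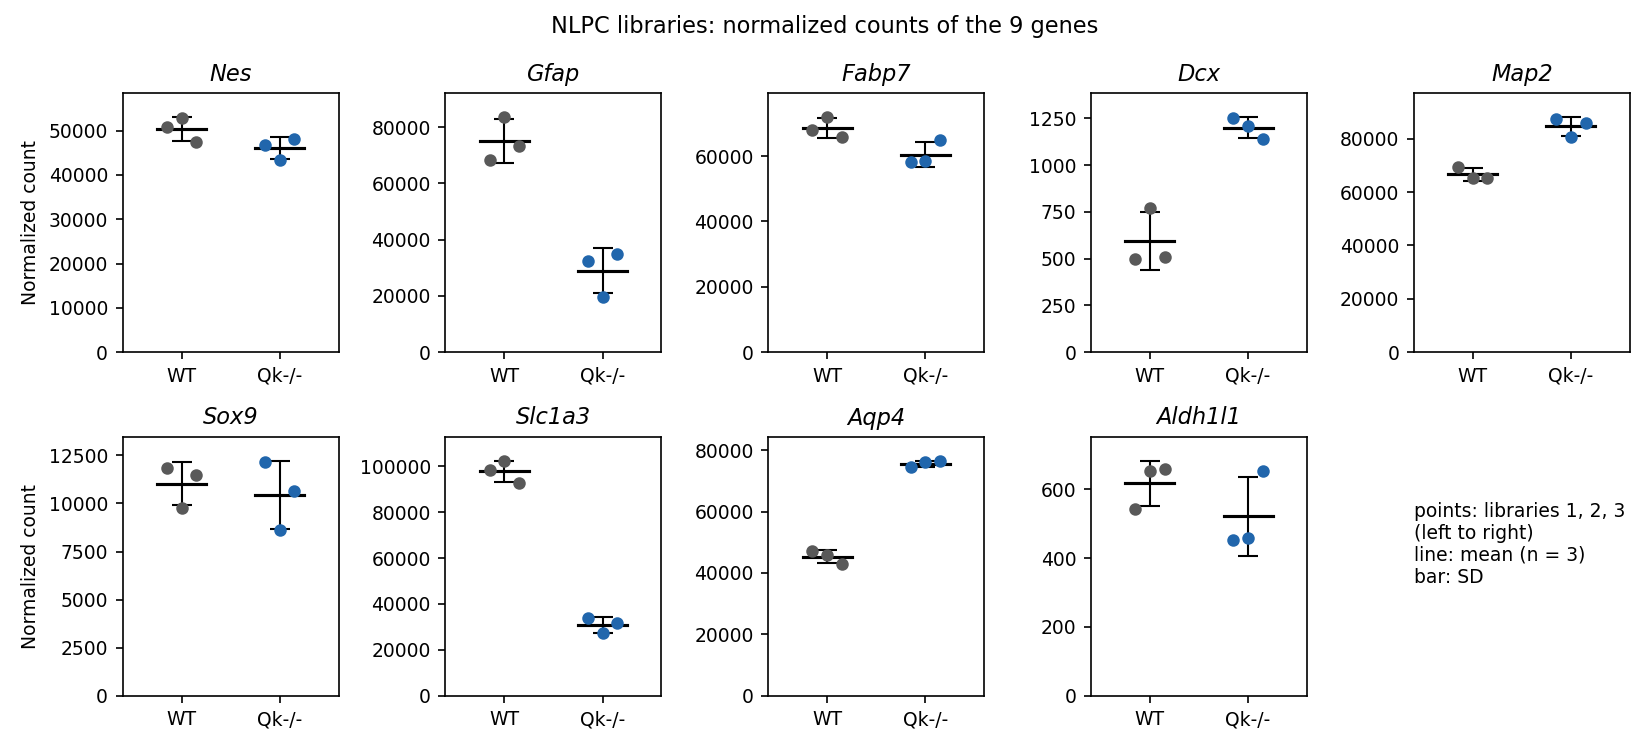
Normalized counts of the 9 genes in each NLPC library, on linear axes that start at 0; points are libraries 1 to 3, lines group means and bars SD (n = 3). *Slc1a3* and *Gfap* are lower and *Aqp4*, *Dcx* and *Map2* higher in all 3 Qk-/- libraries than in any WT library, while *Nes*, *Sox9* and *Aldh1l1* overlap.

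Since *Gfap* and *Slc1a3* fell together, the DNA around their starts is shown, 250 bases before and 50 after the start that RefSeq gives, read 5′ to 3′ on the strand of the gene (RefSeq, GRCm38.p6). The Gfap window is chr11:102897151-102897450 and that of Slc1a3 chr15:8710758-8711057, both on the minus strand. Capitals mark matches to TTCNNNGAA, the palindromic core of sites for STAT factors, which act in astrocyte differentiation.
Gfap: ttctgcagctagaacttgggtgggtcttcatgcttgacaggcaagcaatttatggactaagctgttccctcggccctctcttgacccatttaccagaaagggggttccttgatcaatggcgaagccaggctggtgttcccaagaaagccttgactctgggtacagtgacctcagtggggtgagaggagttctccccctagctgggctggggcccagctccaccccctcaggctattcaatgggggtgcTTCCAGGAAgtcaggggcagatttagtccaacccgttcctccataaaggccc
Slc1a3: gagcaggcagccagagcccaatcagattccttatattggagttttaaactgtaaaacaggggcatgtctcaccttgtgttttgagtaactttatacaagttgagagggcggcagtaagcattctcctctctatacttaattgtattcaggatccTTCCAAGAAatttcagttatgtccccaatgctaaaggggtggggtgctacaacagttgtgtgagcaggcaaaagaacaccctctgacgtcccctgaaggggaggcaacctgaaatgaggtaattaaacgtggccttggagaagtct
Each window held 1 match, as did 8.30% of 32851 promoter windows of this length. This motif was picked after the windows had been read, so the match is a description only. Of 7 of the 9 genes with a window in the table, 2 held the motif. The half-site of NFI factors (TTGGC on either strand; 46.7% of all windows) and the SOX core (ACAAAG or ACAATG on either strand; 28.6%) were in neither window.

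In the lists, of which the 9 genes are part, astrocyte and radial glia genes leaned lower in Qk-/- NLPCs. Of 22 tested 10 fell, *Gfap* and *Slc1a3* among them, and 1, *Aqp4*, rose. The median log2 fold change was −0.54. Among those that fell were *Itih3*, an inter-alpha-trypsin inhibitor chain (8.29-fold, from 2821 ± 496 to 338 ± 92 normalized counts, adjusted p = 0.00033), and *Ntsr2*, a neurotensin receptor (4.61-fold, adjusted p = 0.0061). Of 20 neural stem and progenitor genes 5 fell and 1 rose (median −0.23). *Hes5*, a target and effector of Notch signalling, fell 11.2-fold from 1103 ± 125 to 94.3 ± 65 (adjusted p = 0.0043), the matrix protein gene *Tnc* fell 6.81-fold (adjusted p = 0.00014) and *Sox3* 2.25-fold (adjusted p = 0.0092), while *Ccnd2*, a G1 cyclin, rose 1.35-fold (adjusted p = 0.021). Leaving out 1 library moved the number of stem genes called to 3 (without WT library 1, 2 or 3 or Qk-/- library 1) and 9 (without Qk-/- library 2), and that of astrocyte genes to between 8 and 15.

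Neuron genes leaned higher. Of 23 tested, 6 rose and 0 fell, with a median of 0.47. *Snap25*, a SNARE protein of synaptic vesicle release, rose from 14.7 ± 10 to 806 ± 179 normalized counts (adjusted p = 0.00033), *Gad1*, which makes GABA, from 310 ± 60 to 1257 ± 32 (adjusted p = 0.00047) and *Eno2*, neuronal enolase, from 202 ± 45 to 453 ± 34 (adjusted p = 0.013). This count was 3 without WT library 1, 2 without WT library 3, 3 without Qk-/- library 1 and 11 without Qk-/- library 2, the last with 8 higher and 3 lower. DESeq2 called 8 higher and 2 lower, and edgeR with every gene of at least 1 count 6 higher and 2 lower. In the oligodendrocyte lineage 4 of 8 genes fell and 0 rose, among them *Pdgfra* (2.40-fold, adjusted p = 0.0011) and *Cspg4* (1.70-fold, adjusted p = 0.029). Of 7 lens genes tested, *Maf* rose 2.68-fold (to 4782 ± 1907 normalized counts, adjusted p = 0.014) and *Cryab* fell 2.74-fold (to 1268 ± 552, adjusted p = 0.023). The crystallin share of reads was 0.0016% in Qk-/- library 2 and 0.0030% in Qk-/- libraries 1 and 3. Changes of *Maf* and *Cryab* without library 2 are not given. Of the genes of other cells, 1 of 6 of endothelium and pericytes passed (*Cspg4*, which is also in the oligodendrocyte list), and 0 of 3 of leukocytes, 0 of 7 of photoreceptors and retina and 0 of 3 of pigmented epithelium did.

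In the lens, 7 of the 9 genes had enough reads to be tested, and 1 of them, *Nes*, passed. *Nes* (chr3:87971078-87980451, plus strand) had 88.5, 83.5 and 60.9 normalized counts in Ctrl and 443.7, 430.9 and 181.9 in Qk-iCKO lenses. All 3 Qk-iCKO lenses were above every Ctrl lens, with library 3 the lowest of them, and *Nes* was 4.55-fold higher (2.19 ± 0.35 SE, adjusted p = 0.0087). Without Qk-iCKO library 1 it was 1.98 (adjusted p = 0.019). Over all 12201 genes tested in the lens, 8.38% were called higher and 3.88% lower, and 35.3% had groups that did not overlap, as 1 of the 7 members tested had. The median log2 fold change of the 7 was 0.99, against 0.01 over all genes.

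*Slc1a3* differed as much between lenses of one group as between groups. It had 20.3, 48.6 and 1.8 normalized counts in Ctrl and 101.8, 145.7 and 2.6 in Qk-iCKO lenses, so libraries 3 of both groups were near 0. The change was 1.83 ± 1.15 SE (adjusted p = 0.34). With the replicate number as a block, so that lenses of the same number were compared, the change was 1.83 with an adjusted p of 0.0098, and 2 of the 7 genes passed. Summed photoreceptor and retina genes also varied between libraries, at 93.7, 664 and 4.12 CPM in Ctrl and 126, 63.4 and 18.3 in Qk-iCKO lenses, lowest in libraries 3. Their part in the values of *Slc1a3* was not tested.

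The other 5 were within the spread between lenses. *Sox9* had 16.0, 14.7 and 5.3 normalized counts in Ctrl and 69.5, 18.7 and 15.6 in Qk-iCKO lenses (1.57 ± 0.68, adjusted p = 0.17), and without Qk-iCKO library 1, where it was highest, the change was 0.52. *Aldh1l1* had 46.9, 58.7 and 49.5 against 165.8, 112.1 and 27.3 (0.99 ± 0.54, adjusted p = 0.27). It passed only without Qk-iCKO library 3, the one below Ctrl (1.43, adjusted p = 0.015). *Gfap* was at 111 ± 26 in Ctrl and 116 ± 62 in Qk-iCKO lenses (0.07 ± 0.39, adjusted p = 0.92), and its sign turned without Qk-iCKO library 1 (−0.42) or Ctrl library 1 (−0.12) and with the replicate block (−0.02). *Aqp4* was at 131 ± 28 and 166 ± 75 (0.34 ± 0.34, adjusted p = 0.56), and *Map2* at 238 ± 74 and 176 ± 29 (−0.43 ± 0.25, adjusted p = 0.31). *Fabp7* (0, 1 and 0 reads in Ctrl; 2, 1 and 1 in Qk-iCKO) and *Dcx* (3, 1 and 4 against 0, 0 and 1) were too low to be tested.

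**Figure D4:**
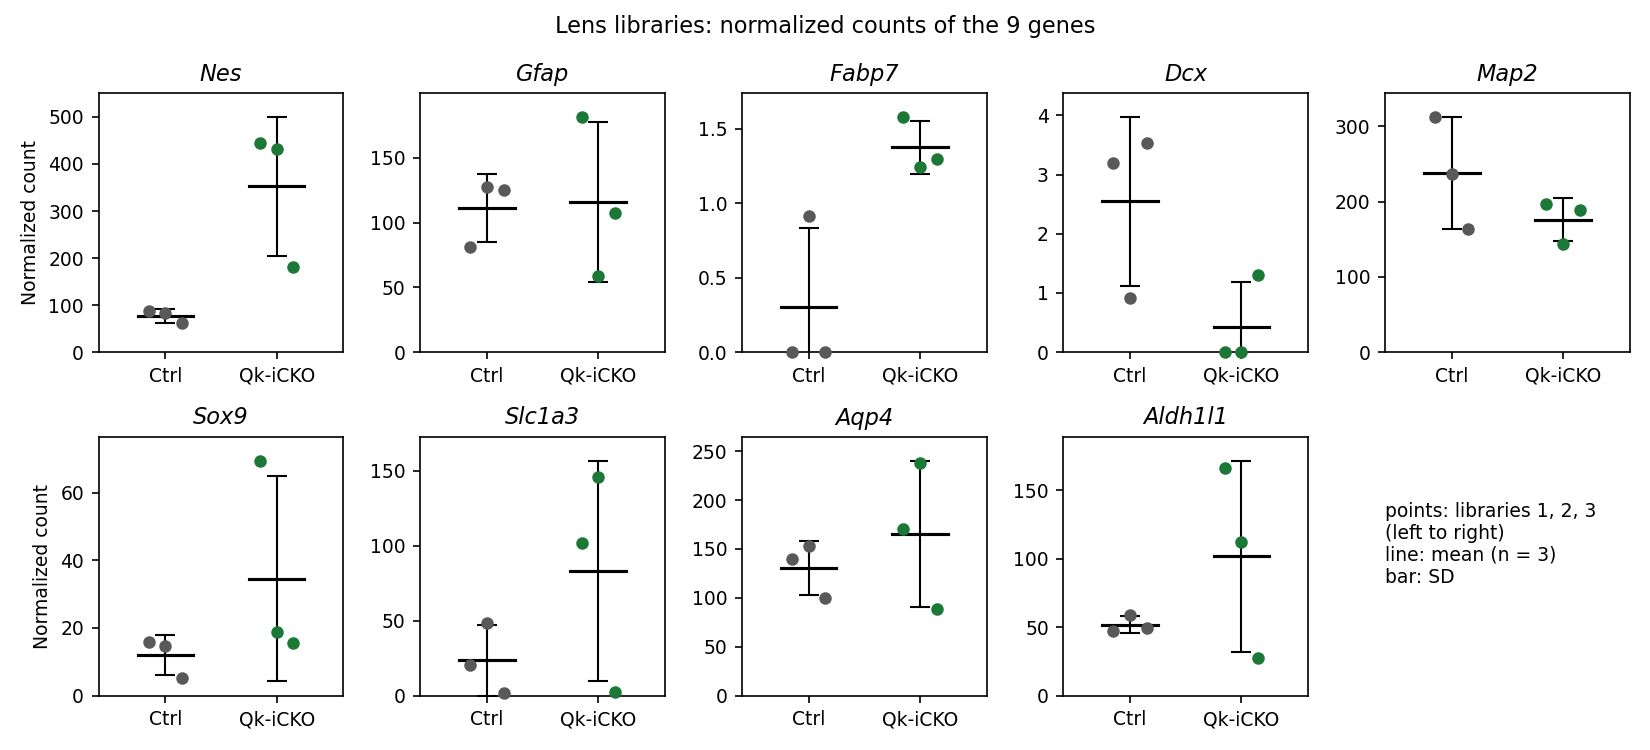
Normalized counts of the 9 genes in each lens library, on linear axes that start at 0; points are libraries 1 to 3, lines group means and bars SD (n = 3). The *Nes* values of the 3 Qk-iCKO libraries lie above those of all 3 Ctrl libraries, and in library 3 of both groups *Slc1a3* is near 0.

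In Ctrl lenses 3 of 20 stem and 4 of 24 astrocyte genes were in the top 10%, so these lists hold genes that the lens uses as well. Of 14 neural stem and progenitor genes tested 2 were higher (*Nes* and *Tnc*) and 1 lower (*Hes5*, from 72.5 ± 15 to 11.4 ± 5.6 normalized counts, adjusted p = 0.0068). *Tnc* was at 21.6 ± 8.5 against 3.49 ± 1.9 (adjusted p = 0.019). Of 19 astrocyte and radial glia genes 1 rose (*Sparcl1*, 1.87-fold, adjusted p = 0.028) and 2 fell (*Fgfr3*, 2.57-fold, adjusted p = 0.0015, a growth factor receptor, and *Aldoc*, a glycolytic enzyme, 2.20-fold, adjusted p = 0.0082). With the replicate block, 4 of the 19 rose and 2 fell. Of 9 neuron genes, *Gap43*, of growing axons, rose to 27.3 ± 8.2 normalized counts from 1.26 ± 0.50 (adjusted p = 0.0022) and *Mapt* fell 2.45-fold (adjusted p = 0.028). Without Qk-iCKO library 3 the stem and the astrocyte genes called were 5 each, and the call of *Sparcl1* was lost without any of the other 5 libraries. That of *Tnc* was lost without Ctrl library 1 or 3. Of the neuron genes 1 was called, with none lower, without Ctrl library 1 or 3 or Qk-iCKO library 1 or 2. Without Ctrl library 2, 2 were called, again with none lower. The call of *Mapt* was thus lost in each of these fits, and with total counts alone. *Cnp* (3.70-fold, from 9.58 ± 3.7 to 36.2 ± 11 normalized counts) and *Cspg4* (3.52-fold, from 8.75 ± 3.7 to 30.4 ± 8.7) rose among 3 oligodendrocyte lineage genes tested. *Cspg4* is also in the endothelium and pericyte list and is counted there again. *Olig1*, *Olig2* and *Mog* of the oligodendrocyte list had no read in Ctrl lenses. Of 14 lens genes 1, *Mip*, fell (3.23-fold, adjusted p = 0.026). Markers of other cells moved with the groups. All 6 leukocyte genes tested rose, their sum going from 1.71 to 2.95 CPM in Ctrl to 68.0 to 82.1 CPM in Qk-iCKO lenses, and 1 to 4 of the 8 genes listed had no read in a Ctrl library against 0 in a Qk-iCKO library. Of 7 endothelium and pericyte genes 3 rose, and the pigmented epithelium list summed to 4.26 to 9.28 CPM in Ctrl and to 139, 23.5 and 8.68 CPM in the Qk-iCKO lenses, with 0 of its 4 tested genes called, or 2 higher with the replicate block. The lens list was lowest in Qk-iCKO library 1, at 177158 CPM against 312656 to 389424 in the others. Much of this gap came from the scaling, as the TMM factor was 1.48 in that library and 0.89 to 0.96 in the others. As a share of reads the list took 26.1% there, against 30.0 to 34.5%. Of 11 photoreceptor and retina genes 0 passed (*Gnat1*, adjusted p = 0.31), or 1 with the block. The part of these cells in the change of *Nes* was not tested.

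In HLE-B3 cells 4 of the 9 genes were tested and all 4 were lower in QKI KO, beside 16.3% of 19049 genes called lower and 17% called higher. *NES* (chr1:156638555-156647199, minus strand, GRCh37) had 8035, 6946 and 7280 normalized counts in WT and 3219, 3039 and 3091 in QKI KO, and was 2.38-fold lower (−1.25 ± 0.07, adjusted p = 6.5e-10). *SLC1A3* had 1627, 1842 and 1797 against 1207, 1182 and 1058 (−0.61 ± 0.09, adjusted p = 6.1e-05). For *SOX9*, with 6238, 6660 and 6256 against 5544, 5726 and 5355, the difference was 1.15-fold (−0.20 ± 0.06, adjusted p = 0.015). *MAP2* had few reads, at 60.4, 127.2 and 86.2 against 11.1, 44.8 and 42.2 normalized counts (−1.48 ± 0.49, adjusted p = 0.029). None of the 4 had overlapping groups, as for 44.6% of all genes tested. The call of *MAP2* was lost without WT library 2 (adjusted p = 0.164) or QKI KO library 1 (0.092), and that of *SOX9* without WT library 2 (0.081) or QKI KO library 1 or 3 (0.062 and 0.125).

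The lists, which include *NES*, *SLC1A3*, *SOX9* and *MAP2*, were split in these cells. Of 12 neural stem and progenitor genes tested 7 were lower and 0 higher, among them *TNC* (2.68-fold, from 21859 ± 413 to 8157 ± 729, adjusted p = 7.7e-11), *MSI1* (2.42-fold, adjusted p = 0.010) and *HOPX* (3.59-fold, adjusted p = 0.024). Of 16 astrocyte and radial glia genes 5 rose and 4 fell. *GLUL*, glutamine synthetase, rose 3.76-fold (adjusted p = 5.3e-11), *SLC4A4*, a bicarbonate cotransporter, 2.04-fold (adjusted p = 6.0e-07) and *ALDOC* 2.01-fold (adjusted p = 0.00024), while *SLC1A3*, *ACSBG1* (1.79-fold, adjusted p = 0.046) and *FGFR3* (1.23-fold, adjusted p = 0.047) were among the lower ones. Of 11 neuron genes 6 fell and 1, *GAD1* (1.54-fold, adjusted p = 0.018), rose, with *TUBB3*, a neuronal tubulin, 2.32-fold lower (adjusted p = 2.2e-06) and *SYT1*, a calcium sensor of synaptic vesicles, 1.72-fold lower (adjusted p = 3.3e-05). The lower astrocyte genes were 1 in place of 4 without WT library 2 or QKI KO library 1 or 3. Of 7 lens genes, *CRYAB* rose 1.80-fold and 3 fell, *MAF* most (19.6-fold, to 7.71 ± 13 normalized counts). Of the genes of other cells, 1 of 4 of the oligodendrocyte lineage rose and 1 fell, and 2 of 4 of endothelium and pericytes fell. *CSPG4* is counted as lower in both of these lists. Of leukocyte genes 1 of 2 fell, and of photoreceptor and retina genes 1 of 4 rose (*PRPH2*, adjusted p = 0.049). The 1 pigmented epithelium gene tested did not pass.

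The same gene could be set side by side in the 3 systems. *Nes* rose in the lens, was within the spread in NLPCs and fell in HLE-B3 cells. The difference between the changes in NLPCs and lens was tested as an interaction in a joint fit of both mouse tables, in which 8.53% of 16675 genes passed. The change of *Nes* in NLPCs minus that in the lens was −2.23 ± 0.38 SE (adjusted p = 0.0036). It was the only one of the 7 genes tested in both systems to pass. *Dcx* and *Fabp7* entered the joint fit through their NLPC reads alone, and with 9 and 5 reads in the 6 lens libraries a difference in their change could not be tested. *Slc1a3* fell in NLPCs and was 1.83 higher in the lens with a wide error, and the difference of −3.42 ± 1.07 had an adjusted p of 0.072, or 0.00026 with the replicate block. For *Sox9* these values were −1.64 ± 0.64 and 0.137, or 0.037 with the block. The differences of *Gfap* (−1.37 ± 0.47, adjusted p = 0.096), *Map2* (0.86 ± 0.28, 0.084), *Aldh1l1* (−1.15 ± 0.59, 0.27) and *Aqp4* (0.49 ± 0.37, 0.47) did not pass. That of *Gfap* passed without lens Qk-iCKO library 2 (adjusted p = 0.025), that of *Map2* without lens Ctrl library 3 (0.034), and those of *Slc1a3* and *Aldh1l1* without lens Qk-iCKO library 3 (0.0055 and 0.0085). HLE-B3 cells are of another species and table, and their changes were not tested against the others.

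**Figure D5:**
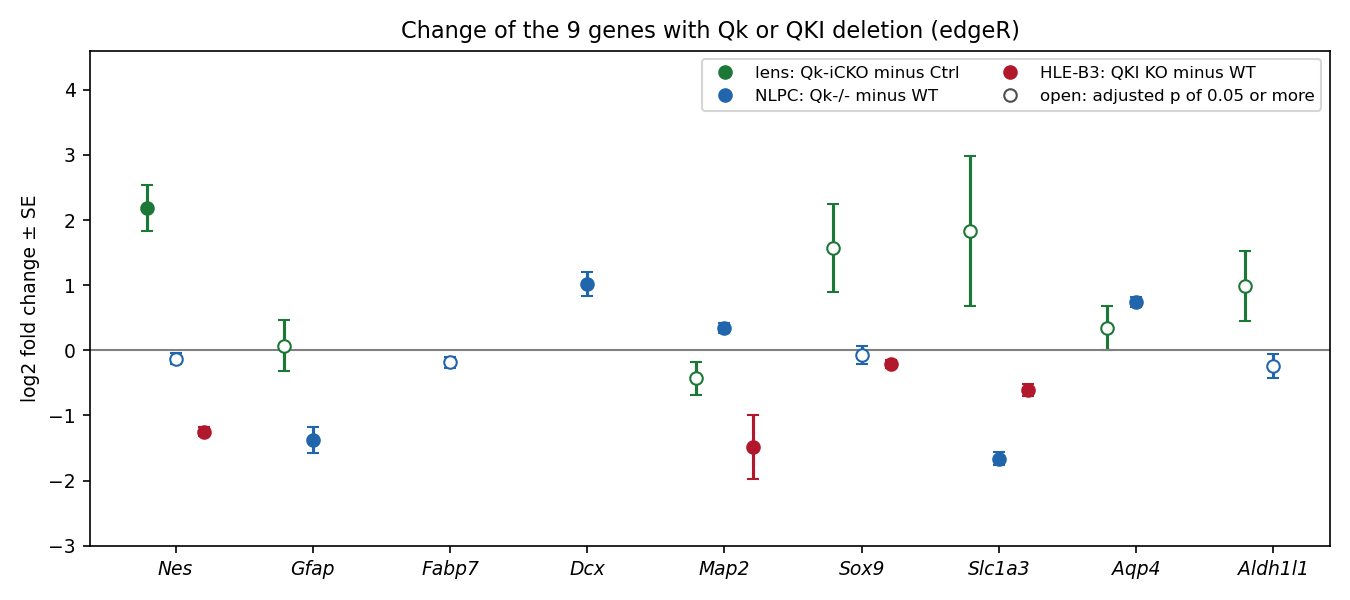
Log2 fold change of each gene with deletion, with its standard error, in the lens, NLPCs and HLE-B3 cells (3 libraries per group); filled points have an adjusted p under 0.05 and genes too low to be tested have no point. *Nes* lies at 2.19, −0.13 and −1.25 in the 3 systems, and *Slc1a3* at 1.83, −1.66 and −0.61.

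Genes whose pattern was most like that of each member were sought over the 12 mouse libraries among 11217 genes tested in both systems. The measure was Pearson's r of log2 CPM after the mean of each system was removed. The libraries share their group and depth, so r describes these libraries only. The spread of the systems was not made equal, so the system in which a gene varied more weighs more in r. *Nes*, for example, changed by 2.19 in the lens and by −0.13 in NLPCs. For *Nes* the closest genes were *Vcl* (r = 0.988), which encodes vinculin, *Nab2* (0.986) and the receptor tyrosine kinase gene *Axl* (0.985). For *Slc1a3* they were *Cyb5b* (0.976), *Hes1* (0.958), a Notch effector, and *Mlc1* (0.957), a membrane protein of astrocytes. The genes closest to *Gfap* were *Tpmt* (0.973), *Ddah1* (0.959) and *Kif13a* (0.956), and *Sox9* had *Arhgef1* (0.969), *Cds2* (0.966) and *Phlpp2* (0.964). *Aldh1l1* had *Zfp212* (0.967), *Gldc* (0.960), of glycine cleavage, and *Olfml2a* (0.937), *Aqp4* had *1600014C10Rik* (0.961), *Map3k12* (0.952) and *Lrba* (0.948), and *Map2* had *Ddx47* (0.890), *Top1mt* (0.864) and *Scaper* (0.856). Among the members, r between *Nes* and *Slc1a3* was 0.631 and between *Gfap* and *Aqp4* −0.637.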

How the data were processed

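RNA-seq was measured in 18 libraries. The authors aligned stranded paired-end reads with 2-pass STAR (2.6.1b) to mm10 or hg19 and counted them per gene with HTSeq (0.11.0); their processing notes also list HISAT2 2.0.4 and featureCounts without a role. They deposited 1 table of counts for each system, not normalized, which was used without rescaling. Rows for the Y copies of human pseudoautosomal genes were left out. Each system was fitted alone in edgeR 4.0.16 (R 4.3.3): filterByExpr (minimum count 10, minimum total 15), TMM, quasi-likelihood test without covariates, Benjamini-Hochberg adjustment over all genes tested, called at 0.05. Normalized counts are counts at the mean effective library size of their system. The SE of a log2 fold change is its absolute value divided by the square root of the quasi-likelihood F statistic. Lengths are merged exons of GENCODE. An exact permutation test of 3 libraries against 3 cannot go below p = 0.10. The steps were tested on simulated data.

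Same-numbered libraries deviated together in the lens (r = 0.233, 0.133 and 0.523) and in NLPCs (0.123, 0.320 and 0.145). Most pairs of unlike number had a negative r. Some were as high as same-numbered pairs: lens Ctrl library 2 with Qk-iCKO library 1 (0.279) and NLPC WT library 1 with Qk-/- library 3 (0.232). Deviations were taken from group means, so a positive r in some pairs brings a negative r in others. The negative values therefore add nothing on pairing. In NLPCs libraries 2 were also the shallowest of both groups (45350794 reads in WT and 28154202 in Qk-/-). The labels give a replicate number but do not say that libraries were paired. Blocked values are printed beside genes of the lens and NLPCs whose call they change and counts that they move by over 1.5 times.

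The 9 genes and the marker lists were chosen with earlier results of these data known. From each list and system, up to 3 genes per direction with the largest changes among those called are named, or the 2 highest in controls where none was; also the 3 genes most like each member. A few genes that this rule names are not reported here. Pigmented epithelium, endothelium and pericyte, photoreceptor and leukocyte lists were used to describe other cells. Alternatives were RLE, total counts, TMM without crystallins (lens), other filters, DESeq2 1.42.0, the replicate block, a minimum change of 1.5-fold and each library left out.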

Additional observations from a re-analysis of the deposited data

Results flagged for a closer look

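The change with deletion differed between lens and NLPCs for 1 of the 7 genes tested in both, *Nes*. The difference itself was tested (edgeR's interaction of deletion and system over the 12 mouse libraries). In Qk-iCKO lenses all 6 leukocyte genes tested and 3 of 7 endothelium and pericyte genes rose too. The part of these cells in the change of *Nes* was not tested. The change in NLPCs minus that in the lens was −2.23 on the log2 scale (adjusted p = 0.0036), and it passed under all 12 libraries left out in turn, between −2.56 and −2.02. The same fit gave *Dcx* 3.90, but this is no test of a difference: in the lens *Dcx* had 8 reads over 3 Ctrl and 1 read over 3 Qk-iCKO libraries, too few to be tested there, and it entered the joint fit only through its NLPC reads. Its adjusted p was 0.043, and above 0.05 in 9 of the 12 fits with 1 library left out.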

How the results depend on the processing

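The depth of the lens libraries limits *Fabp7* and *Dcx*, with 5 and 9 reads in all, and groups of 3 limit every test. Of the 9 genes, 1 was called in the lens, 5 in NLPCs, 4 in HLE-B3 cells and 2 by the joint fit of lens and NLPCs, of which *Dcx* had too few lens reads to be tested and is included only in these counts. Leaving out 1 library gave 1 to 2 in the lens, 3 to 5 in NLPCs, 2 to 4 in HLE-B3 cells and 1 to 4 for the difference, and no called change turned its sign. With the replicate block (same-numbered libraries paired) the lens count was 2, through *Slc1a3*, and that of the difference 4, through *Slc1a3* and *Sox9*. The block changed no other call of the 9 genes. In HLE-B3 cells same-numbered libraries did not deviate together (r = 0.061, 0.057 and −0.049), and 4 were called with the block as without it. The difference between lens and NLPCs was called for 1 gene with total counts alone and for 1 with at least 10 counts in every sample. It was called for 5 with every gene that had at least 1 count, *Gfap*, *Sox9* and *Slc1a3* joining, and for 4 with DESeq2, *Gfap* and *Map2* joining. With every gene of at least 1 count, *Map2* in NLPCs lost its call (0.32, adjusted p = 0.28). DESeq2 called 10 stem genes (3 higher, 7 lower) in place of 6 and 10 neuron genes in place of 6 in NLPCs, and 4 neuron genes in place of 2 in the lens. With at least 1 count, 7 stem, 5 astrocyte and 5 neuron genes were called in the lens, in place of 3, 3 and 2. With a minimum change of 1.5-fold, 5 of the astrocyte genes were called in HLE-B3 cells in place of 9. Causes were not tested. In control libraries 0, 7 and 2 of the 9 genes were in the top 10% in lens, NLPCs and HLE-B3 cells under each scaling tried.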
